A study of Cucumis sativus with 9 samples.

Results

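The late embryogenesis abundant (LEA) and dehydrin genes of cucumber were taken as all genes whose description in the deposited tables holds the words late embryogenesis abundant or dehydrin, in any case. This rule, which used no expression value, found 49 of 24880 genes. By the Pfam domain in the description, they were 38 LEA_2 genes, 4 LEA_1 genes, 3 LEA_3 genes, 3 dehydrin genes and 1 LEA_4 gene. The data came from leaves of 3-week-old seedlings of the inbred line Chinese long 9930, a northern Chinese cucumber, grown at 25 °C by day and 18 °C by night with 16 h of light and 8 h of darkness. The seedlings were moved to 42 °C, and leaves were taken at 0 h (HT0h, the control), after 3 h (HT3h) and after 6 h (HT6h), with 3 RNA-seq libraries in each group that the study calls biological replicates. How many plants made up a library is not given in the sources used here. Unheated leaves of the later hours are not among the samples, so that heat and the hour of sampling cannot be told apart. The study left out HT3h_2 and HT6h_2 because they were not uniform with their groups; the tests below used the other 7 libraries, and the values of all 9 stand beside them.

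LEA proteins are mostly small, hydrophilic proteins that were first found in maturing seeds as these dry out, and many of their genes are also switched on in leaves and roots by drought, salt, cold or abscisic acid. In water many of them have little fixed structure, and they are known to protect enzymes and membranes from drying and freezing. The Pfam classes differ in sequence and are not a family by descent. Dehydrins carry the lysine-rich K segment and include *RAB18*, *COR47* and *ERD10* of Arabidopsis. The LEA_1 and LEA_4 classes hold typical seed proteins, and LEA_4 also holds the cold-regulated *COR15A* of Arabidopsis. LEA_3 proteins include *SAG21* of Arabidopsis, a mitochondrial protein whose gene responds to senescence and oxidative stress. LEA_2 is the atypical class, with folded and less hydrophilic proteins, and in Arabidopsis it includes many NDR1/HIN1-like proteins, which are membrane proteins studied for their part in defence against pathogens.

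Levels were measured as FPKM, the number of fragments on a gene per kilobase of its length, scaled for the depth of the library. A library held between 18972139 and 22942239 fragments on genes. For the genes not detected, 3 fragments over the 9 libraries together corresponded to between 0.0174 and 0.0446 FPKM. These 3 fragments are the limit that a count of 0 allows. Differences were tested with limma on log2(FPKM + 0.1), and a call required both a Benjamini-Hochberg adjusted p, taken over every gene tested, of at most 0.05 and a log2 fold change of at least 1 in either direction. The added 0.1 draws fold changes of weakly expressed genes towards 0. The light-harvesting genes of the leaf, whose proteins bind chlorophyll, had a summed level between 57580 and 64751 FPKM in HT0h, between 22769 and 66871 in HT3h and between 10556 and 24189 in HT6h. All 20 of these genes were detected. In such bulk samples, fewer cells of a type and less RNA per cell cannot be told apart.

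The levels of LEA and dehydrin genes in leaves ranged from undetected to abundant. No fragment was found in any of the 9 libraries for 8 of the 49 genes, which were 7 LEA_2 genes and 1 LEA_1 gene. This was 16.3% of the genes, beside 14.1% of all genes. A further part was barely detected, so that 15 genes in all had fewer than 30 fragments over the 9 libraries. In HT0h, 27 genes had a mean of at least 1 FPKM and 15 of them had at least 5 FPKM. The 6 highest means in HT0h were 97.7 FPKM for the LEA_2 gene CsaV3_2G011930, 50.1 for the dehydrin gene CsaV3_6G031720, 47.8 for the LEA_3 gene CsaV3_7G029330, and 23.0, 20.8 and 20.6 for the LEA_2 genes CsaV3_1G014170, CsaV3_3G008390 and CsaV3_4G027470. The HT0h ranges of the last 3 overlapped, as did those of CsaV3_6G031720 and CsaV3_7G029330.

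**Figure D1:**
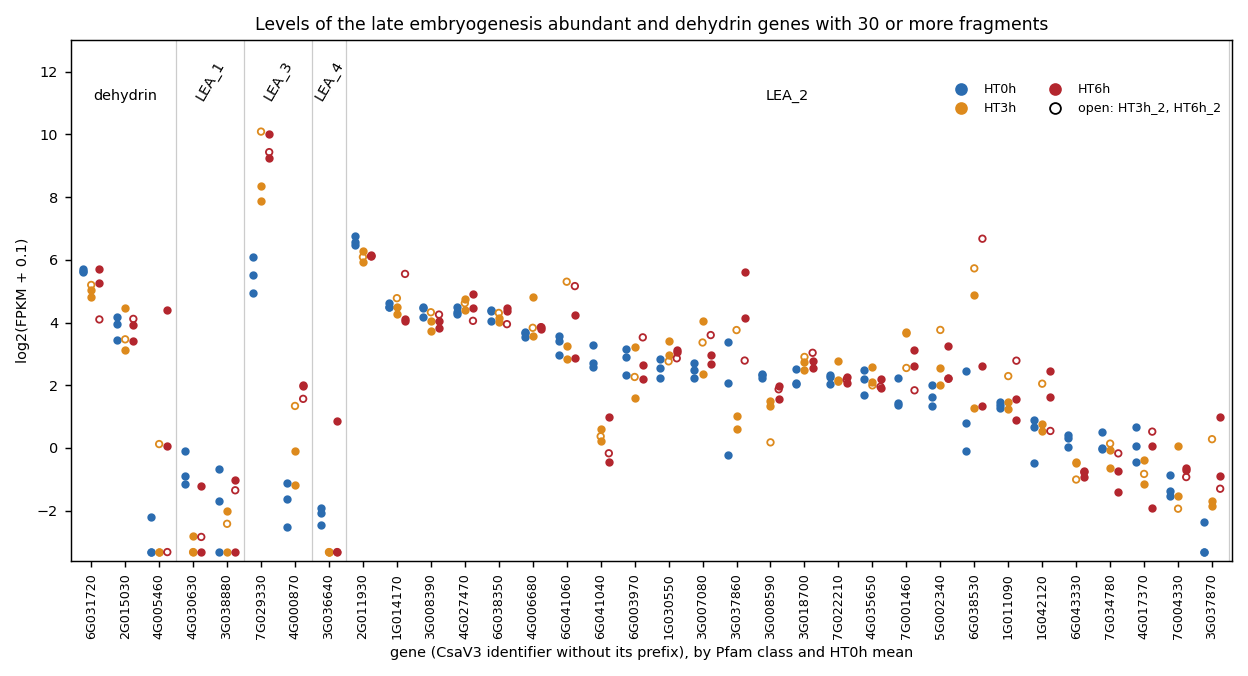
Level of each of the 34 genes with at least 30 fragments, as log2(FPKM + 0.1) in every library, by Pfam class and, within a class, by the HT0h mean; blue, orange and red points are HT0h, HT3h and HT6h libraries, and open circles are HT3h_2 and HT6h_2. CsaV3_7G029330 in LEA_3 stood above all other genes shown in every heated library, while most LEA_2 genes had overlapping points.

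In the 7 libraries, 35 of the 49 genes reached the mean of 0.1 FPKM required for the test, and in all 9 libraries 36 did. CsaV3_3G037870, CsaV3_4G005460 and CsaV3_3G036640 reached it in the 7 libraries only through HT6h, and CsaV3_4G030630 and CsaV3_3G037820 only through HT0h. In the 9 libraries CsaV3_4G030630 and CsaV3_3G037820 again reached it only through HT0h, and CsaV3_3G036640 and CsaV3_5G002330 only through HT6h. Such genes were tested because of the group where they were high, so that counts and medians over the tested genes are given as a description. At 3 h, 4 of the 35 genes (11.4%) were called, 2 higher and 2 lower than in HT0h. Over all genes tested 18.3% were called, 10.0% higher and 8.29% lower. Of the 4, 1 had reached the mean through HT0h alone. At 6 h, 9 of the 35 genes (25.7%) were called, 7 higher and 2 lower, beside 22.3% of all genes tested, 12.2% higher and 10.0% lower, and 2 of the 9 had reached the mean through HT6h alone. Their median log2 fold change was -0.14 at 3 h and 0.14 at 6 h, where all genes tested had -0.016 and -0.0016.

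With all 9 libraries, 5 of 36 genes (13.9%) were called at 3 h, 2 higher and 3 lower, beside 20.4% of all genes tested, 10.9% higher and 9.57% lower. At 6 h the 9 libraries gave 5 of 36 genes (13.9%), 3 higher and 2 lower, beside 22.4% of all genes tested, 12.3% higher and 10.1% lower. The difference between these shares and those of all genes was not tested. Between 6 h and 3 h, limma called 0 of the LEA and dehydrin genes in the 7 libraries, where 8 had an unadjusted p under 0.05, and 0 in the 9 libraries, where 3 did. Few genes of any kind were called in that comparison, 0.201% in the 7 libraries (0.0876% higher, 0.113% lower at 6 h) and 0.375% in the 9 libraries (0.175% higher, 0.200% lower). Calls at 3 h or 6 h alone do not show that a gene differed between these times.

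Groups of libraries that did not overlap were common among all genes tested. In the 7 libraries every HT3h library lay above every HT0h library for 4 genes and below for 9 of the 35, beside 29.5% and 29.6% of all genes tested. At 6 h the counts were 12 above and 8 below, beside 32.7% and 32.5%, and between 6 h and 3 h they were 9 above and 4 below, beside 18.6% and 18.5%. With 9 libraries, 3 of 36 genes lay above and 7 below at 3 h, beside 26.0% and 25.3%. At 6 h, 8 lay above and 6 below, beside 27.1% and 27.0%, and between 6 h and 3 h 3 lay above and 0 below, beside 5.90% and 5.61%.

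**Figure D2:**
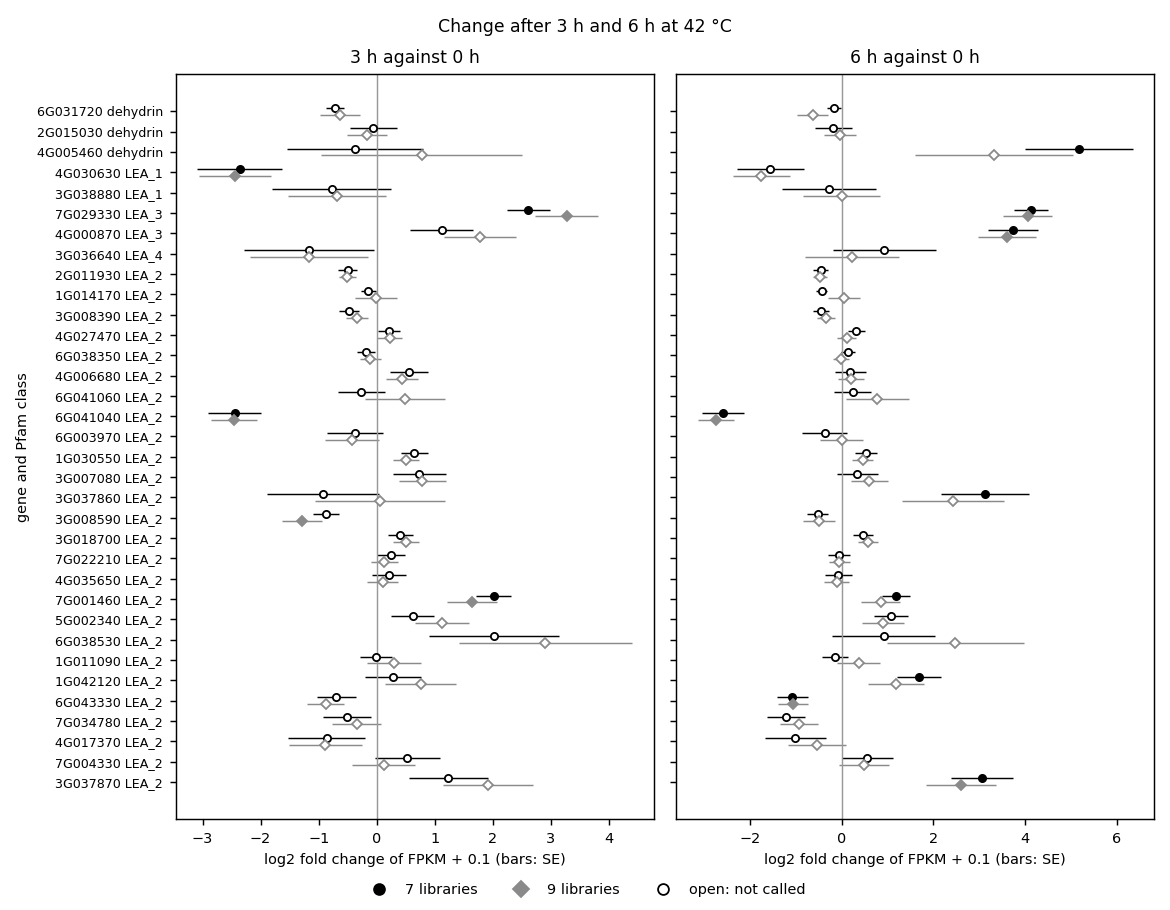
Log2 fold change of FPKM + 0.1 at 3 h (left) and at 6 h (right) against 0 h for the same 34 genes, with bars for the standard error; black circles are the fit of 7 libraries, grey diamonds that of all 9, and filled symbols are called genes. Both LEA_3 genes lay far to the right at 6 h in both fits, whereas the dehydrin gene CsaV3_4G005460 had the widest bars of the called genes, with a standard error of 1.17 over 7 libraries and 1.73 over 9.

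Both LEA_3 genes that could be tested rose under heat, and 1 of them, CsaV3_7G029330, had the highest level of the 49 genes in every heated library. The gene lies on chromosome 7, plus strand, from 18582374 to 18583636 (CsaV3 build). Its level was 67.5, 45.2 and 30.8 FPKM in HT0h_1 to HT0h_3. In HT3h_1 to HT3h_3 it was 329, 1091 and 235 FPKM. In HT6h_1 to HT6h_3 it was 1039, 693 and 609.8 FPKM. The lowest heated library was thus above the highest control library, and the HT3h and HT6h libraries overlapped because of HT3h_2. The mean rose from 47.8 ± 18.5 FPKM (SD, n = 3) in HT0h to 282 ± 66.6 (n = 2) in HT3h and 825 ± 304 (n = 2) in HT6h of the 7 libraries, and with 9 libraries to 552 ± 469 and 781 ± 228 (n = 3 each). The log2 fold change by limma was 2.61 (SE 0.37, adjusted p = 0.00286) at 3 h and 4.13 (SE 0.37, adjusted p = 4.68e-04) at 6 h, or 6.11-fold and 17.5-fold. With 9 libraries it was 3.27 (SE 0.54) at 3 h and 4.06 (SE 0.54) at 6 h, called at both times. Both calls were made under all 21 settings in which the gene was tested. Against 3 h, the level at 6 h differed by 1.52 on the log2 scale (SE 0.41, adjusted p = 0.205), which did not pass.

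The other LEA_3 genes are neighbours on chromosome 4, plus strand, with 924 bases and no other gene between them. CsaV3_4G000870 (494574 to 495450) was close to absent before heat and present after 6 h. Its level was 0.0724, 0.361 and 0.223 FPKM in HT0h, 0.340, 2.43 and 0.829 in HT3h, and 3.84, 2.86 and 3.88 in HT6h. Every HT6h library therefore lay above every other library, although HT3h_2 came near to HT6h_2. The rise at 6 h was called with 7 libraries (log2 fold change 3.75, SE 0.54, adjusted p = 0.00241) and with 9 (3.61, SE 0.63, adjusted p = 0.00284), and under all 21 settings. At 3 h the log2 fold change was 1.12 (adjusted p = 0.156), which did not pass. In fragments, the 3 HT0h libraries held 9 and HT6h_1 and HT6h_3 together 120, a ratio at equal depth of 17.6 with an exact (Clopper-Pearson) 95% interval from 8.99 to 39.5, which covers counting error only. Its neighbour CsaV3_4G000880 (496375 to 496813), chosen after its values were seen, had 2 fragments in HT6h_1, 1 in HT6h_3 and 0 in the other 7 libraries, too few for a fold.

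Summed over the 49 genes, the level was between 363 and 417 FPKM in HT0h, between 539 and 1492 in HT3h and between 945 and 1410.5 in HT6h. CsaV3_7G029330 alone gave 8.50% to 16.2% of that sum in HT0h, 43.6% to 73.1% in HT3h and 61.4% to 73.7% in HT6h. The LEA_2 sum, by contrast, was between 261 and 284 FPKM in HT0h, between 262 and 350.1 in HT3h and between 246 and 398 in HT6h, so that its range in each heated group reached into that of HT0h. The dehydrin sum was between 60.7 and 69.6 FPKM in HT0h, between 41.4 and 49.8 in HT3h and between 34.3 and 83.7 in HT6h. Sums over all members took at most 0.237% of the FPKM of all genes, a share reached in HT6h_1.

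**Figure D3:**
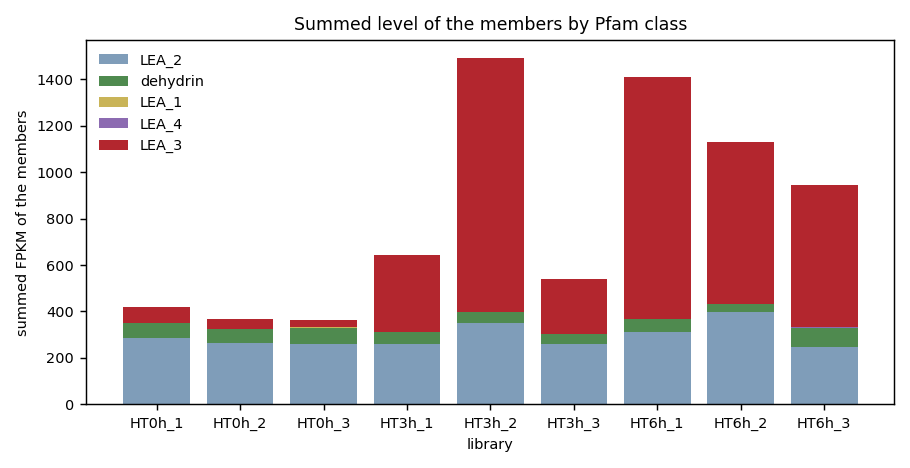
Summed FPKM of the 49 genes in each library, stacked by Pfam class. The red LEA_3 part grew from between 31.0 and 67.5 FPKM in HT0h to between 236 and 1094 in HT3h and between 614 and 1043 in HT6h, while LEA_1 and LEA_4 are too small to be seen at this scale.

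The 3 dehydrin genes had unlike patterns, and none of them was called at both times. CsaV3_6G031720 (chromosome 6, plus strand, 17843336 to 17845484), the most abundant of them, had 48.8, 49.9 and 51.8 FPKM in HT0h. It had 28.0, 36.6 and 32.7 FPKM in HT3h and 38.4, 17.0 and 51.8 in HT6h. All HT3h libraries lay below all HT0h libraries, and the HT6h libraries spread from below the HT3h range up to the HT0h range. The log2 fold change at 3 h was -0.73 (SE 0.16, adjusted p = 0.0132), significant but under the 1 log2 unit needed for a call, and with 9 libraries it was -0.63 (SE 0.34, adjusted p = 0.186). At 6 h it was -0.17 with 7 libraries (adjusted p = 0.437) and -0.63 with 9 (adjusted p = 0.183). CsaV3_2G015030 (chromosome 2, plus strand, 12537199 to 12539216), chosen after its values were seen, had between 10.8 and 17.9 FPKM in HT0h, between 8.68 and 21.8 in HT3h and between 10.6 and 17.2 in HT6h, and these ranges overlapped.

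The third dehydrin gene, CsaV3_4G005460 (chromosome 4, minus strand, 3635430 to 3636641), had its high value in 1 library. Its fragments numbered 2, 0 and 0 in HT0h, 0, 20 and 0 in HT3h, and 17, 0 and 423 in HT6h. The level was 21.2 FPKM in HT6h_3, at most 0.990 FPKM in every other library, and 0 in HT6h_2. The fit of 7 libraries, in which it was tested only through HT6h, called it at 6 h (log2 fold change 5.18, SE 1.17, adjusted p = 0.0132), as did the fit without a filter (adjusted p = 0.0145). With 9 libraries it was not called (3.33, SE 1.73, adjusted p = 0.163), nor with all 9 but HT6h_3 (1.31, adjusted p = 0.467). Among the 7, leaving out HT6h_3 lowered the log2 fold change to 2.99 (adjusted p = 0.0374), where HT6h_1 stands alone and is assumed to vary like the other groups, and leaving out HT6h_1 raised it to 7.36. The ratio of fragments in HT6h_1 and HT6h_3 to HT0h was 291 at equal depth, with an exact 95% interval from 80.1 to 2411 that covers counting error only and leaves out the gap between HT6h libraries.

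The LEA_4 gene CsaV3_3G036640 (chromosome 3, plus strand, 30387572 to 30389757) was high in the same library. It had 6, 5 and 3 fragments in HT0h, 0 in each HT3h library, 0 in HT6h_1 and HT6h_2, and 75 in HT6h_3, where its level was 1.73 FPKM. HT0h held 14 fragments and HT3h 0. With a floor of 3 fragments for HT3h, taken over the group, HT0h lay 3.45-fold above it over the 7 libraries and 5.31-fold over the 9. The counting error of HT0h and the differences between libraries are left out of these values. The test across libraries did not call it at 3 h (log2 fold change -1.17, adjusted p = 0.462) or at 6 h (0.93, adjusted p = 0.546), and it was called at 6 h only without HT6h_1, where HT6h_3 stands alone (3.02, adjusted p = 0.0191). Genes with at least 1 FPKM and at least 4 times the level of every other library numbered 39 in HT6h_3, these 2 among them, and between 7 and 40 in the other libraries, with none of the LEA or dehydrin genes. Oleosins, which coat the oil bodies of seeds, were searched as markers of seed tissue. Of the 7 oleosin genes 2 were at 0 in all libraries, and their summed level was between 9.06 and 12.6 FPKM in HT0h, between 10.6 and 20.3 in HT3h and between 9.95 and 18.1 in HT6h, with 18.1 in HT6h_3. The oleosin gene CsaV3_1G008740, chosen after its values were seen, had 5.99 FPKM in HT6h_3 and at most 1.29 elsewhere. It does not stand for the list, as the summed level was highest in HT3h_3, at 20.3 FPKM, where this gene had 0.308. The part of other tissue in the values of HT6h_3 was not tested.

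LEA_1 genes were scarce at all times. CsaV3_4G030630 (chromosome 4, minus strand, 20600271 to 20601570) had 0.838, 0.442 and 0.354 FPKM in HT0h, 0, 0 and 0.0434 in HT3h, and 0, 0.0397 and 0.335 in HT6h. Each heated library lay below each control library. At 3 h it was called lower in both fits, with a log2 fold change of -2.36 (SE 0.73, adjusted p = 0.0456) over 7 libraries and -2.44 (SE 0.62, adjusted p = 0.0166) over 9. Both fits tested it only through HT0h, where it was high; without a filter the adjusted p was 0.0385. The values rest on 33 fragments in HT0h and 1 in HT3h_1 and HT3h_3, so that the HT0h level was 24.4 times that of HT3h with an exact 95% interval from 4.08 to 991, which covers counting error only. The call was made under 10 of 20 settings only, and leaving out any of the 5 HT0h and HT3h libraries ended it, with adjusted p between 0.0794 and 0.158. At 6 h the log2 fold change was -1.56 (adjusted p = 0.135), and it was called without HT6h_3, at -2.62 (adjusted p = 0.0413) in the 7 libraries and -2.38 (adjusted p = 0.0157) in the 9. Of the other LEA_1 genes, CsaV3_3G038880 had between 0 and 0.531 FPKM over the 9 libraries, CsaV3_3G001850 had 2 fragments in HT3h_3 alone, and CsaV3_3G010110 had none; these 3 were chosen after their values were seen.

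LEA_2 held the most genes. Of the 38 genes, 27 were tested in the 7 libraries. At 3 h 1 was called higher and 1 lower, which makes 7.41% beside 18.3% of all genes tested. At 6 h 4 were called higher and 2 lower, or 22.2% beside 22.3%. In the 9 libraries 1 of 28 was called higher and 2 lower at each time, or 10.7% beside 20.4% and 22.4%. The most abundant gene of the class, CsaV3_2G011930 (chromosome 2, minus strand, 9323398 to 9326367), had 109, 89.0 and 94.7 FPKM in HT0h, 77.9, 68.0 and 60.6 in HT3h and 71.4, 69.2 and 70.3 in HT6h. All 6 heated libraries lay below the controls, by less than 1 log2 unit, with -0.50 at 3 h (SE 0.16, adjusted p = 0.0485) and -0.46 at 6 h (SE 0.16, adjusted p = 0.0585). Over 9 libraries the log2 fold changes were -0.51 (adjusted p = 0.0255) and -0.47 (adjusted p = 0.0325).

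CsaV3_1G014170 (chromosome 1, plus strand, 9625940 to 9626773) had between 22.3 and 24.3 FPKM in HT0h, 22.5, 27.3 and 19.2 in HT3h and 16.6, 46.8 and 17.4 in HT6h. Its direction at 6 h turned on HT6h_2, with a log2 fold change of -0.43 (adjusted p = 0.0341) over 7 libraries and 0.05 (adjusted p = 0.924) over 9. CsaV3_3G008390 (chromosome 3, plus strand, 7129457 to 7136590), whose description also lists a ubiquitin-conjugating enzyme domain, had between 17.9 and 22.7 FPKM in HT0h, between 13.3 and 20.0 in HT3h and between 14.0 and 19.0 in HT6h. CsaV3_4G027470 (chromosome 4, minus strand, 16614026 to 16615654) had between 19.2 and 22.4 FPKM in HT0h, between 21.0 and 26.8 in HT3h and between 16.5 and 30.3 in HT6h. Neither of these 2 genes had an adjusted p under 0.05 in either fit.

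CsaV3_6G041040 fell under heat at both times. It lies on chromosome 6, plus strand, from 23791912 to 23794215, and its length equals its span, as in a gene of 1 exon. Its level was 6.48, 5.92 and 9.65 FPKM in HT0h, 1.42, 1.19 and 1.07 in HT3h, and 1.89, 0.789 and 0.634 in HT6h. The 2 libraries that the study left out lay within the range of their groups here, and no heated library came near the controls. The log2 fold change was -2.45 at 3 h (SE 0.45, adjusted p = 0.00726) and -2.59 at 6 h (SE 0.45, adjusted p = 0.00498), to 0.183 and 0.166 of the control level. Over 9 libraries it was -2.46 (adjusted p = 0.00206) and -2.74 (adjusted p = 0.00125), and both calls were made under all 21 settings.

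Close by, with 1 gene between them, lies the LEA_2 gene CsaV3_6G041060 (23797755 to 23800234, minus strand), chosen after its values were seen. It had 10.5, 11.8 and 7.68 FPKM in HT0h, 9.52, 39.4 and 7.01 in HT3h, and 18.9, 35.7 and 7.23 in HT6h. Its high values were those of HT3h_2 and HT6h_2, and the log2 fold changes of -0.27 and 0.25 at 3 h and 6 h over 7 libraries did not pass (adjusted p = 0.645 and 0.657). So 2 near neighbours of 1 class had unlike values under heat.

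CsaV3_7G001460 (chromosome 7, plus strand, 1266268 to 1269960) was the LEA_2 gene that rose at 3 h in both fits. It had 4.55, 2.61 and 2.47 FPKM in HT0h, 12.7, 5.76 and 12.8 in HT3h, and 6.00, 3.48 and 8.67 in HT6h. Each HT3h library exceeded the controls, while HT6h_2 lay among them. The log2 fold change was 2.01 at 3 h (SE 0.31, adjusted p = 0.00344) and 1.63 over 9 libraries (SE 0.43, adjusted p = 0.0185), called under all 21 settings. At 6 h it was called with 7 libraries (1.20, adjusted p = 0.0204) and not with 9 (0.85, adjusted p = 0.149), nor without HT0h_2, HT0h_3 or HT6h_3 (adjusted p between 0.0599 and 0.128).

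The remaining calls in LEA_2 were less firm. CsaV3_1G042120 (chromosome 1, minus strand, 26909521 to 26910296) had 1.76, 0.610 and 1.49 FPKM in HT0h, 1.58, 4.04 and 1.35 in HT3h, and 5.41, 1.36 and 2.99 in HT6h. It was called at 6 h with 7 libraries (log2 fold change 1.69, SE 0.48, adjusted p = 0.0305) and not with 9 (1.19, adjusted p = 0.156), as HT6h_2 lay among the controls, nor when any 1 of HT0h_2, HT0h_3, HT6h_1 and HT6h_3 was left out (adjusted p between 0.0530 and 0.180). The gene CsaV3_6G043330 (chromosome 6, minus strand, 25518623 to 25521737) fell from 1.14, 0.913 and 1.23 FPKM in HT0h to 0.499, 0.484 and 0.430 in HT6h, with 0.623, 0.397 and 0.639 in HT3h. All of its heated libraries lay below the controls. The call at 6 h stood close to both thresholds, with a log2 fold change of -1.07 (SE 0.33, adjusted p = 0.0412) over 7 libraries and -1.06 (SE 0.33, adjusted p = 0.0331) over 9, and it was made under 11 of 20 settings. Leaving out any 1 of the HT0h and HT6h libraries ended it (adjusted p between 0.0691 and 0.130). CsaV3_3G008590 (chromosome 3, plus strand, 7222137 to 7225200) had 4.56, 4.88 and 5.04 FPKM in HT0h, 2.45, 1.03 and 2.72 in HT3h, and 2.88, 3.56 and 3.85 in HT6h. The fall at 3 h was called only where HT3h_2 entered the fit, with a log2 fold change of -1.29 (adjusted p = 0.0204) over 9 libraries and -0.88 (adjusted p = 0.0222) over 7.

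**Figure D4:**
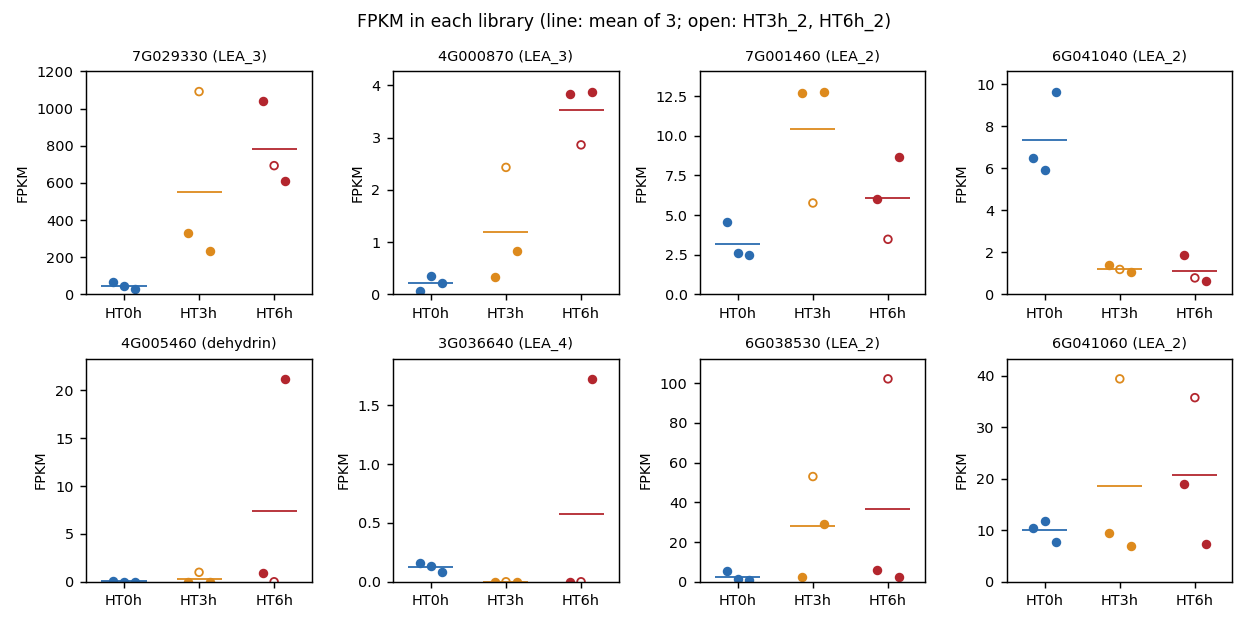
FPKM of 8 genes in each library, 1 panel per gene with its own axis from 0; points are libraries, open circles HT3h_2 and HT6h_2, and lines the mean of the 3 libraries of a group. The upper row shows genes called at 1 or both times under every alternative tried, with CsaV3_6G041040 between 0.634 and 1.89 FPKM in all heated libraries. The lower row shows genes that 1 or a few libraries set apart, with CsaV3_4G005460 at 21.2 FPKM in HT6h_3.

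Several of these genes varied widely between libraries of a group. Among the genes with a mean of at least 1 FPKM over the 9 libraries, 26 were LEA or dehydrin genes. In HT0h 2 of the 26 differed at least 4-fold in FPKM + 0.1 between the highest and the lowest library, beside 2.23% of all such genes, in HT3h 6 did, beside 7.22%, and in HT6h 4 did, beside 6.80%. The 6 of HT3h included CsaV3_7G029330 and CsaV3_4G000870. The LEA_2 genes CsaV3_3G037860, described below, and CsaV3_6G038530 did so at all 3 times. CsaV3_6G038530 (chromosome 6, minus strand, 21942858 to 21944491) was chosen after its values were seen. It had 5.35, 1.64 and 0.842 FPKM in HT0h, 2.32, 52.9 and 29.2 in HT3h, and 5.96, 102 and 2.43 in HT6h. The high libraries were HT3h_2, HT3h_3 and HT6h_2, and HT3h_1 lay within the HT0h range. The fits with all 7 and all 9 libraries did not call it, with log2 fold changes of 2.02 at 3 h (adjusted p = 0.211) and 0.92 at 6 h (adjusted p = 0.554) over 7 libraries and 2.91 (adjusted p = 0.166) and 2.49 (adjusted p = 0.224) over 9. Without HT3h_1 it was called at 3 h (3.82, adjusted p = 0.0363).

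The 49 genes lay on all 7 chromosomes, with 14 on chromosome 3, 9 on chromosome 6, 8 on chromosome 4, 7 on chromosome 7, 5 on chromosome 1, 4 on chromosome 5 and 2 on chromosome 2. In 8 cases a gene and the next gene on the chromosome were both of the group, which took in 12 genes. A length equal to the span, as in genes of 1 exon, was found for 13 genes, all of them LEA_2 (34.2% of that class), beside 18.6% of all genes. The largest run was 6 LEA_2 genes in a row on chromosome 3, CsaV3_3G037820 to CsaV3_3G037870, from 31180787 to 31202810, a stretch of 22.0 kb. How fragments shared by such similar neighbours were counted is not given in the sources used here, so that their levels are less certain than those of lone genes.

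Within this run the first 4 genes were almost silent in all libraries. Of the 2 at its right end, CsaV3_3G037860 was expressed at all times. CsaV3_3G037870 had a mean of only 0.0316 FPKM in HT0h, where CsaV3_3G037820 had 0.222, and was higher in the heated libraries. CsaV3_3G037830 and CsaV3_3G037850 had no fragments, CsaV3_3G037840 had 1 fragment in HT6h_2, and CsaV3_3G037820 had between 0 and 0.398 FPKM; these 4 were chosen after their values were seen. The end genes face away from each other, with 2631 bases between them. CsaV3_3G037860 (minus strand, 31192731 to 31195568) had 4.14, 0.757 and 10.3 FPKM in HT0h, 1.43, 13.5 and 1.93 in HT3h, and 48.7, 6.80 and 17.7 in HT6h. It varied 13.6-fold between HT0h libraries, and HT6h_2 lay within the HT0h range. The call at 6 h with 7 libraries (log2 fold change 3.13, SE 0.97, adjusted p = 0.0401) was lost with 9 (2.44, SE 1.11, adjusted p = 0.119). It was also lost when any 1 of HT0h_1, HT3h_1, HT3h_3, HT6h_1 and HT6h_3 was left out (adjusted p between 0.0538 and 0.220).

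CsaV3_3G037870 (plus strand, 31198200 to 31202810) had 0.0948, 0 and 0 FPKM in HT0h, 0.178, 1.11 and 0.209 in HT3h, and 1.90, 0.306 and 0.443 in HT6h. Every heated library lay above every control library. The rise at 6 h was called with 7 libraries (log2 fold change 3.06, SE 0.68, adjusted p = 0.0123) and with 9 (2.61, SE 0.77, adjusted p = 0.0284). The 7 libraries tested it only through HT6h, where it was high; without a filter the adjusted p was 0.00975. The call was lost without HT6h_1 among the 7 (2.12, adjusted p = 0.0743). At 3 h the log2 fold change was 1.23 (adjusted p = 0.208) over 7 libraries and 1.91 (adjusted p = 0.0867) over 9. In fragments, HT0h held 2 and HT6h_1 and HT6h_3 held 54, a ratio of 35.7 at equal depth. Its exact 95% interval from 9.42 to 303 covers counting error only. The LEA_2 gene CsaV3_5G002330 (chromosome 5, 1416612 to 1417903), chosen after its values were seen, had fragments at 6 h only. It had 0 fragments in HT0h and HT3h and 6, 19 and 1 in HT6h. With a floor of 3 fragments for HT0h, it lay 7.39-fold above HT0h over the 9 libraries, the counting error of HT6h left out. It reached the mean required for the test with 9 libraries only, through HT6h alone, where its adjusted p at 6 h was 0.0605. Of the 5 alternatives in which it was tested 2 called it at 6 h, 1 of them all 9 libraries but HT6h_3 (2.42, adjusted p = 0.0162).

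**Figure D5:**
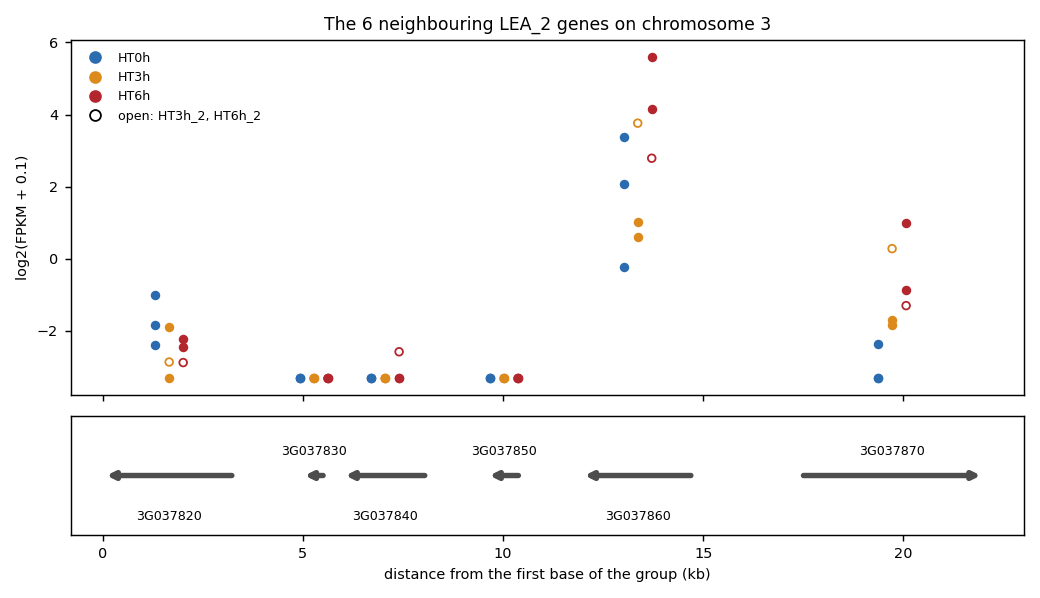
The 6 neighbouring LEA_2 genes of chromosome 3 (lower panel, arrows in the direction of the strand, distance from the first base of the run in kb) and, above each, its level as log2(FPKM + 0.1) in the 9 libraries, drawn side by side by time; open circles are HT3h_2 and HT6h_2. Points at the lower edge are libraries with 0 FPKM, which hold nearly all points of genes 2 to 4.

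Other genes linked with heat, with seeds or with abscisic acid were followed by words in their descriptions. Counts are those of the 7 libraries unless 9 are named. Of all genes tested, 10.0% were called higher and 8.29% lower at 3 h, and 12.2% higher and 10.0% lower at 6 h. With 9 libraries, these shares were 10.9% and 9.57% at 3 h and 12.3% and 10.1% at 6 h. The differences of the lists from these shares were not tested. Small heat shock proteins (Hsp20), chaperones that hold unfolded proteins, were called higher for 19 of 27 genes at 3 h and for 15 at 6 h (19 and 17 with 9 libraries), and 0 were called lower, and their summed level was between 333 and 384 FPKM in HT0h, between 1478 and 1789 in HT3h and between 697 and 797 in HT6h. Of genes with seed functions, limma called 0 of the 4 oleosin genes tested and 0 of 2 caleosin genes (another oil body protein) at 3 h and 6 h; an unadjusted p under 0.05 was found for 1 oleosin gene at 3 h and 2 at 6 h with 7 libraries, for 0 with 9, and for 0 caleosin genes. Of the seed storage and lipid transfer domain genes, a family whose lipid transfer proteins are also made in leaves, 1 of 3 was called lower at each time in both fits, and their summed level was between 3210 and 4276 FPKM in HT0h, between 429 and 1507 in HT3h and between 506 and 3694 in HT6h. No description named vicilin or legumin. Of 3 genes for seed maturation proteins outside the group, 1 was called higher at 3 h (1 of 2 with 9 libraries). The bZIP, type 2C protein phosphatase and B3 lists are whole families, not narrowed to genes of abscisic acid signalling. The bZIP transcription factors had 6 of 45 called higher at 3 h and 9 at 6 h, with 0 lower. With 9 libraries, 8 and 7 of them were higher. Type 2C protein phosphatases had 3 higher and 3 lower of 44 at 3 h and 3 higher and 4 lower at 6 h. With 9 libraries, 6 of 45 phosphatase genes were higher and 2 lower at 3 h, and 4 were higher and 4 lower at 6 h. Of the B3 transcription factors, 1 of 41 was higher and 3 were lower at each time (2 and 5 at 3 h with 9 libraries, and again 1 and 3 at 6 h), and of the polyketide cyclase family, which holds abscisic acid receptors among others, 5 of 17 were higher and 3 lower at 3 h and 3 and 3 at 6 h (5 and 2, then 3 and 2, with 9 libraries). In the ABA/WDS family, named for induction by abscisic acid and water deficit, 1 of 2 genes was called higher at 6 h with 7 libraries; with 9, limma called 0, and 1 had an unadjusted p under 0.05. Raffinose synthase makes a sugar that builds up with LEA proteins in drying seeds. Of the 5 genes tested under this name, 1 was called higher at each time in both fits. With 9 libraries, 1 was lower at 3 h. At least 2 of the 5 have a description that reads raffinose synthase or seed imbibition protein Sip1. That they make this sugar is not given.

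Markers of other leaf tissues were read in the same way, beside the same shares of all genes tested. Genes described as phloem protein 2 or phloem filament protein, which include lectins also found outside the phloem in other plants, had a summed level between 353 and 527 FPKM in HT0h, between 298 and 520.4 in HT3h and between 485 and 783 in HT6h, and 4 of 32 were called higher and 1 lower at 3 h and 11 higher and 0 lower at 6 h. With 9 libraries 4 of 33 were higher and 4 lower at 3 h, and 8 were higher at 6 h. The part of the phloem in the values at 6 h was not tested. Genes described with the cuticle or as lipid transfer proteins, as in the epidermis, were summed too. Their level was between 66.9 and 75.8 FPKM in HT0h, between 61.0 and 70.4 in HT3h and between 57.6 and 89.0 in HT6h. A separate list given above, the seed storage and lipid transfer domain genes, differed from this. Its sum was between 3210 and 4276 FPKM in HT0h, between 429 and 1507 in HT3h and between 506 and 3694 in HT6h. The part of the epidermis in the values was not tested. Of the light-harvesting genes above, 1 of 20 was called lower at 3 h and 9 were at 6 h (2 and 9 with 9 libraries).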

How the data were processed

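RNA-seq was done on 9 leaf libraries, 3 per time point. The authors deposited 1 table of FPKM values per library, with gene length, position, strand and description; the labels list CASAVA 1.8, HISAT2 2.0.5, StringTie 1.3.3b and featureCounts 1.5.0-p3 among the submitters' processing notes. The sources used here give neither strandedness nor how shared fragments were counted. FPKM times gene length gave whole fragments for 100% of values (within 0.02); the deposited FPKM values are scaled by median-of-ratios size factors rather than by library totals. Libraries of a group differed by a chi-square per degree of freedom from 18.8 to 171, so that none was counted as a copy.

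Values were transformed to log2(FPKM + 0.1), and genes with a mean under 0.1 FPKM were left out. A single limma model (version 3.58.1, R 4.3.3) held all 3 time points and no covariate, its variances were moderated along a trend on the mean, and p-values were adjusted over every gene tested. The script was tested on simulated data. The 7 libraries that the study analysed were used first, then all 9. Alternatives were pseudocounts of 1 and 0.01, other filters, scaling and normalization, limma voom on fragments, the replicate number as a block, only the groups compared, no trend, and leaving out each library.

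Named are all genes called in either fit, the 6 highest HT0h means and the highest gene of each class; others are marked as chosen after their values were seen. The genes and lists were chosen with earlier results of these data known. A RefSeq table of 23999 genes matched 0 of the identifiers and was not used.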

Additional observations from a re-analysis of the deposited data

How the results depend on the processing

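The calls of CsaV3_7G029330 at 3 h and 6 h, CsaV3_4G000870 at 6 h, CsaV3_6G041040 at both times and CsaV3_7G001460 at 3 h were made under every alternative tried. In place of 9 genes called at 6 h, all 9 libraries gave 5, a replicate block in 7 libraries gave 4 and a replicate block in 9 gave 5. Deviations of same-numbered libraries from their group means correlated between -0.229 and 0.480. Libraries of unlike number were not compared in this way, so that pairing by replicate number was not decided. At 3 h the block gave 3 and 6 genes in place of 4. Between 6 h and 3 h, a pseudocount of 1 gave 1 call (CsaV3_4G000870, 1.63, adjusted p = 0.0312) in place of 0. Leaving out 1 of the 7 libraries gave between 3 and 5 genes at 3 h, between 6 and 8 at 6 h and between 0 and 0 from 3 h to 6 h. All 9 libraries but HT6h_3, an alternative chosen after seeing the data, gave 5, 6 and 0.

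The log2 fold changes of named genes below turned direction, and neither the value over 7 libraries nor the turned value was a call. For CsaV3_1G014170 at 6 h (-0.43) they were 0.051 with all 9 libraries, 0.051 with the block in 9, 0.073 with voom in 9 and 0.28 with 9 libraries but HT6h_3; for CsaV3_3G037860 at 3 h (-0.93) they were 0.052, 0.052, 0.11 and 0.052, and for CsaV3_4G005460 at 3 h (-0.37) 0.77, 0.77, 0.86 and 0.77 under the same settings. CsaV3_1G042120 at 3 h (0.28) was -0.14 with the block in 7 libraries and between -0.14 and 0.55 when 1 library was left out. CsaV3_3G036640 at 6 h (0.93) was -0.0086 with a pseudocount of 0.01 and -1.13 with voom in 9 libraries. CsaV3_6G031720 at 6 h (-0.17) was 0.029 per total of fragments and between -0.38 and 0.049 when 1 library was left out. Among the other genes, CsaV3_3G007080 and CsaV3_4G006680, chosen after their values were seen, changed sign at 3 h and were called under 1 alternative each, without HT3h_3 (1.57) and without HT3h_1 (1.18). The cause was not tested.

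Scaling by the total of fragments on genes moved the median log2 fold change of all genes tested to 0.048 at 3 h and 0.19 at 6 h, with 2111 genes higher and 1316 lower at 3 h (1945 and 1610 before) and 3087 higher and 1394 lower at 6 h (2377 and 1951 before). Under it, 3 LEA and dehydrin genes were called at 3 h (2 higher, 1 lower) and 9 at 6 h (8 higher, 1 lower). Over all genes, the count between 6 h and 3 h was 39, and between 0 and 115 under the alternatives. With 2 or 3 libraries a group and 15 genes under 30 fragments, differences in the weakly expressed genes were not detectable at this depth unless large.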

Other observations

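Outside the group, 2 genes described as raffinose synthase or seed imbibition protein Sip1 were high in the same libraries as the LEA_2 gene CsaV3_6G038530. They were chosen after their values were seen. CsaV3_3G042690 had 7.08, 0.550 and 1.92 FPKM in HT0h, 0.251, 54.6 and 21.2 in HT3h, and 14.8, 146 and 9.36 in HT6h. CsaV3_7G030090 had 3.99, 0.713 and 1.63 FPKM in HT0h, 8.46, 43.2 and 23.1 in HT3h, and 19.7, 116 and 11.6 in HT6h. HT3h_2, HT3h_3 and HT6h_2 were the 3 highest libraries for each of the 3 genes. The 2 genes outside the group do not stand for the raffinose synthase list. Its summed level was between 111 and 228 FPKM in HT0h, 208 in HT3h_2, 161 in HT3h_3 and 352 in HT6h_2.

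HT6h_3, where the dehydrin gene CsaV3_4G005460 and the LEA_4 gene CsaV3_3G036640 were high, held further genes of that kind, also chosen after their values were seen. The aminopeptidase gene CsaV3_2G007500, an enzyme of peptide breakdown, had 829 FPKM in HT6h_3 and between 1.18 and 19.9 in the other 8 libraries. CsaV3_4G011610, a transcription factor gene of the NF-YA family, had 1.83 FPKM in HT6h_3 and at most 0.0767 elsewhere.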
